A study of Mus musculus with 2 samples.

Results

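The genes described here are Hif1a, Egln1, Egln3, Bnip3, Ankrd37, Ndrg1, P4ha1, Pdk1 and Ddit4. They are hypoxia response genes outside glycolysis, taken as a list of symbols, and make up 9 of the 31053 genes in the count matrices. They were read in single cells of dental pulp collected at postnatal day 12 from C57BL/6 mice, sorted as negative for propidium iodide, a dye that enters dead cells. There were 2 groups with 1 library each, labelled control and Vegfr2 knockout, and the series describes the knockout as endothelial. The pulp of both groups was digested with collagenase, dispase and DNase before the sort and prepared with the same droplet chemistry, which counts transcripts from their 3′ end as unique molecular identifiers (UMIs). The Cre driver, the exons removed and the number of animals in each library are not given in the sources used here.

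Cells sense oxygen mainly through the hypoxia-inducible factors, pairs of an unstable alpha subunit, such as the one encoded by Hif1a, and a stable partner. When oxygen is plentiful, the prolyl hydroxylases encoded by Egln1 and Egln3 mark the alpha subunit for destruction through the von Hippel-Lindau ubiquitin ligase. When oxygen is scarce the subunit persists and binds sites with the core ACGTG or GCGTG near genes of metabolism, angiogenesis, matrix and survival, including the genes of its own hydroxylases. HIF-1 alpha is regulated mostly at the protein level, so the mRNA of Hif1a itself is not a readout of the pathway in the way that its target genes are. In dental pulp, endothelial cells, pericytes, fibroblast-like mesenchyme, Schwann cells and myeloid cells share a small space enclosed by dentin.

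The stretch of DNA before the transcription start is shown for Bnip3, Ankrd37, P4ha1 and Ddit4, the genes with the 4 largest knockout over control ratios in pulp mesenchyme-like cells among those measured there and found in the promoter table. Capitals mark each ACGTG or GCGTG, on either strand, and overlapping matches run together. The sequences are from RefSeq on GRCm38.p6, cover the 250 bases before the start less any base in an annotated exon, and read 5′ to 3′ along the strand of the gene.
Bnip3, chr7:138909520-138909756, minus strand: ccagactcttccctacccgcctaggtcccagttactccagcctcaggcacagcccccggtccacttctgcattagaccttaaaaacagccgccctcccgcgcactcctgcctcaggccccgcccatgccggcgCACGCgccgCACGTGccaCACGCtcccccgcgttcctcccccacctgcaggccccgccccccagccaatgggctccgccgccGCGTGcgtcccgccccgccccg
Ankrd37, chr8:45999868-46000100, minus strand: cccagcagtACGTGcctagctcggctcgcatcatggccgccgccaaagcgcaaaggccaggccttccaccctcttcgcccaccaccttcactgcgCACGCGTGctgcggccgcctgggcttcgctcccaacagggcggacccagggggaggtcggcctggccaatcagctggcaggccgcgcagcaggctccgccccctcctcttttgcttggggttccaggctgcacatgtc
P4ha1, chr10:59323046-59323295, plus strand: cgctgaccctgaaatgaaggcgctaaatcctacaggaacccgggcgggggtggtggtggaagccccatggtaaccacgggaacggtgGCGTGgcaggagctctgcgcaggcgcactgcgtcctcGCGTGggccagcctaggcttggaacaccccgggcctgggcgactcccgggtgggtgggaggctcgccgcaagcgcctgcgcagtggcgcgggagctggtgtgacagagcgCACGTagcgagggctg
Ddit4, chr10:59951835-59952020, minus strand: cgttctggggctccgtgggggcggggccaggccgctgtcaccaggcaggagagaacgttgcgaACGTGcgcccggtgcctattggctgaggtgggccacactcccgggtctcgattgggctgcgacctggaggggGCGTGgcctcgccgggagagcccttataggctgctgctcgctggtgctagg
The promoter table matched 8 of the 9 genes with 9 windows of 250 bases, since Pdk1 has 2 start sites. At least 1 of the 2 cores was in 8 of the 9 full windows and ACGTG in 7 of the 9. Over all 32851 promoter windows of that length, 38.6% held ACGTG or GCGTG and 16.6% held ACGTG. The Ankrd37 stretch lies within an intron of a longer annotated transcript of the gene. A match to these letters is a description of the sequence, and no binding was measured.

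All 9 are protein-coding genes of GRCm38: Hif1a at chr12:73901375-73947530 on the plus strand, Egln1 at chr8:124908587-124949324 on the minus strand, Egln3 at chr12:54178981-54203860 on the minus strand and Bnip3 at chr7:138890836-138909519 on the minus strand. Ankrd37 lies at chr8:45996902-46005707 on the minus strand, Ndrg1 at chr15:66929318-66969640 on the minus strand, P4ha1 at chr10:59323296-59373304 on the plus strand, Pdk1 at chr2:71873224-71903858 on the plus strand and Ddit4 at chr10:59949669-59951834 on the minus strand. Ankrd37 overlaps Ufsp2 and Lrp2bp on the other strand. Bnip3, Hif1a and Ndrg1 overlap predicted genes only, 1 of which, Gm49321, is on the same strand as Hif1a. The sources used here do not say whether counting used the strand.

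After filtering, 2309 control and 1679 knockout cells held 31457606 and 15074756 UMIs, with medians of 12198 and 8293 UMIs per cell. Clusters of both libraries together, made without the 9 genes and without the other gene lists used below, were named from marker genes. Of the resulting classes, 6 had at least 50 cells in each library: endothelial-like (405 control, 141 knockout), mural-like (276, 165), pulp mesenchyme-like (435, 331), glia-like (453, 388), macrophage or monocyte-like (226, 235) and dendritic-like (281, 279). Of the smaller groups, a cluster led by Col9a1 (139, 35), B-like (39, 36) and neutrophil-like cells (36, 37) are described by level, and T or NK-like cells (19, 32) were too few to enter the orders of levels below. The markers of each of the 6 classes were detected in both libraries, except for 1 of the 12 pulp mesenchyme markers in knockout pulp mesenchyme-like cells. Kdr, the gene of Vegfr2, had 1054 UMIs per 1000000 UMIs (CPM) in control and 650 CPM in knockout endothelial-like cells, a ratio of 0.616 (interval 0.568 to 0.667). Since only 3′ ends were counted and the deleted exons are not named, Kdr reads do not by themselves check the deletion.

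Levels are CPM of a gene among all UMIs of the cells of a class in a library, and each ratio is knockout over control. With 1 library per genotype there is no replicate, no test and no p-value. The interval beside a ratio is the exact 95% interval of 2 Poisson rates. It covers counting error only, not the differences between animals, litters or library preparations. A gene was measured in a class with at least 20 UMIs over both libraries, and was called higher or lower from a 1.5-fold difference.

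Across the 6 classes, 49 of the 54 pairs of gene and class were measured. The knockout level was at least 1.5-fold higher in 32 of the 49, at least 1.5-fold lower in 0 and between these limits in 17. The interval lay above 1 in 36 of the 49 and below 1 in 2, both of them Hif1a, beside 14.2% above and 15.9% below among all 65515 measured pairs of gene and class. In endothelial-like cells 8 of 9 genes were called higher and 0 lower, beside 11.9% of all 10894 genes measured there called higher and 15.2% called lower. The corresponding counts were 5 of 9 in mural-like cells (all genes 10.9% higher, 11.5% lower) and 7 of 8 in pulp mesenchyme-like cells (all genes 11.7% higher, 13.9% lower). In glia-like cells 3 of 7 were called higher (all genes 9.92% higher, 9.63% lower). The counts were 6 of 8 in macrophage or monocyte-like cells (all genes 10.0% higher, 12.7% lower) and 3 of 8 in dendritic-like cells (all genes 9.37% higher, 12.8% lower). None of the 9 was called lower in these 6 classes. The 9 genes and the other lists were chosen with earlier results of these data known. The shares of all genes, here and below, are thus a description and no independent support.

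The median log2 ratio of the genes measured was 0.87 in endothelial-like, 1.06 in mural-like, 1.24 in pulp mesenchyme-like, 0.32 in glia-like, 0.88 in macrophage or monocyte-like and 0.53 in dendritic-like cells. The same median over all genes measured lay between -0.11, in dendritic-like cells, and 0.01, in glia-like cells. The glia-like median, the lowest of the 6 here, rested on 7 genes, since Egln3 and Ankrd37 were too sparse there. It was 0.69, above the dendritic-like 0.53, when genes with at least 1 UMI in each library were taken. With cells thinned to 2000 UMIs it was 0.22 and the dendritic-like median was 0.04, on 3 genes.

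**Figure D1:**
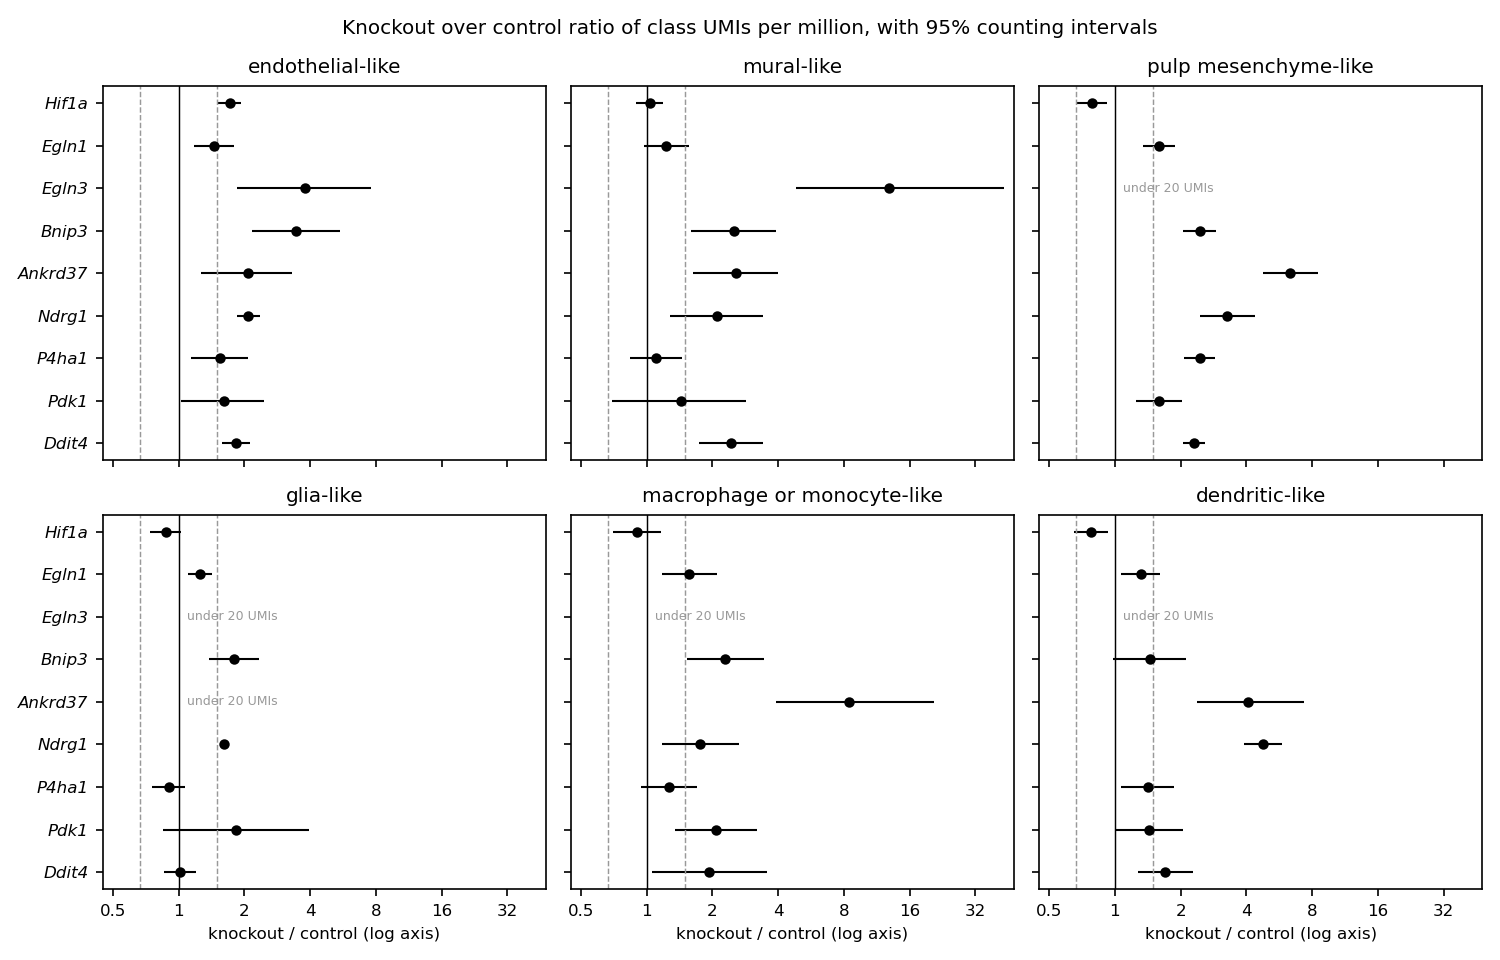
Ratio of knockout over control CPM (log axis) for each gene in the 6 classes, with points for the ratio, bars for the exact 95% counting interval, a solid line at 1 and dashed lines at 1.5-fold in either direction. Most points lie to the right of 1, while Hif1a lies to the right of the 1.5-fold line in endothelial-like cells and to the left of 1 in 4 other classes.

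Hif1a encodes the oxygen-labile alpha subunit of HIF-1. Its control level was 195 CPM in mural-like and 194 CPM in endothelial-like cells, which did not differ beyond counting error, and between 62.9 and 99.8 CPM in the other classes described. In knockout endothelial-like cells it was 331 CPM, a ratio of 1.71 (1.51 to 1.93). With every cell thinned to 2000 UMIs the ratio was 1.34 (0.999 to 1.77), under the 1.5-fold limit. Mural-like cells had 201 CPM in the knockout, a ratio of 1.03 (0.891 to 1.19).
Outside the vessel wall Hif1a was called higher in none of the other 4 classes compared. Pulp mesenchyme-like cells had 94.9 CPM in the control and 74.7 CPM in the knockout, a ratio of 0.786 (0.667 to 0.924). Dendritic-like cells had 66.4 and 51.7 CPM, a ratio of 0.779 (0.649 to 0.932). With every cell thinned to 2000 UMIs the pulp mesenchyme-like ratio was 0.995 (0.671 to 1.46). The dendritic-like ratio was then 0.664 (0.401 to 1.08), and both intervals include 1. The ratio was 0.872 (0.742 to 1.02) in glia-like and 0.906 (0.701 to 1.17) in macrophage or monocyte-like cells, whose intervals include 1. Whether the endothelial-like ratio differs from the others was not tested, since no replicate gives the spread of a ratio.
Hif1a also varied within the endothelial-like class. The cluster led by Vwf, a gene of veins and activated endothelium, had 196 CPM in the control and 391 CPM in the knockout (2.0, 1.71 to 2.33). The cluster led by Cldn5, with the arterial genes Gja5 and Sox17 among its leading genes, had 179 and 271 CPM (1.51, 1.14 to 2.0). The cluster led by Esm1, a gene of sprouting capillaries, had 196 and 211 CPM (1.08, 0.692 to 1.62), with only 15 knockout cells. In pulp mesenchyme-like cells, the cluster led by Sp9 had 145 and 76.3 CPM (0.526, 0.379 to 0.740). The intervals of the clusters led by Cldn10 (0.866, 0.652 to 1.14) and Pcp4 (0.759, 0.398 to 1.32) included 1.

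**Figure D2:**
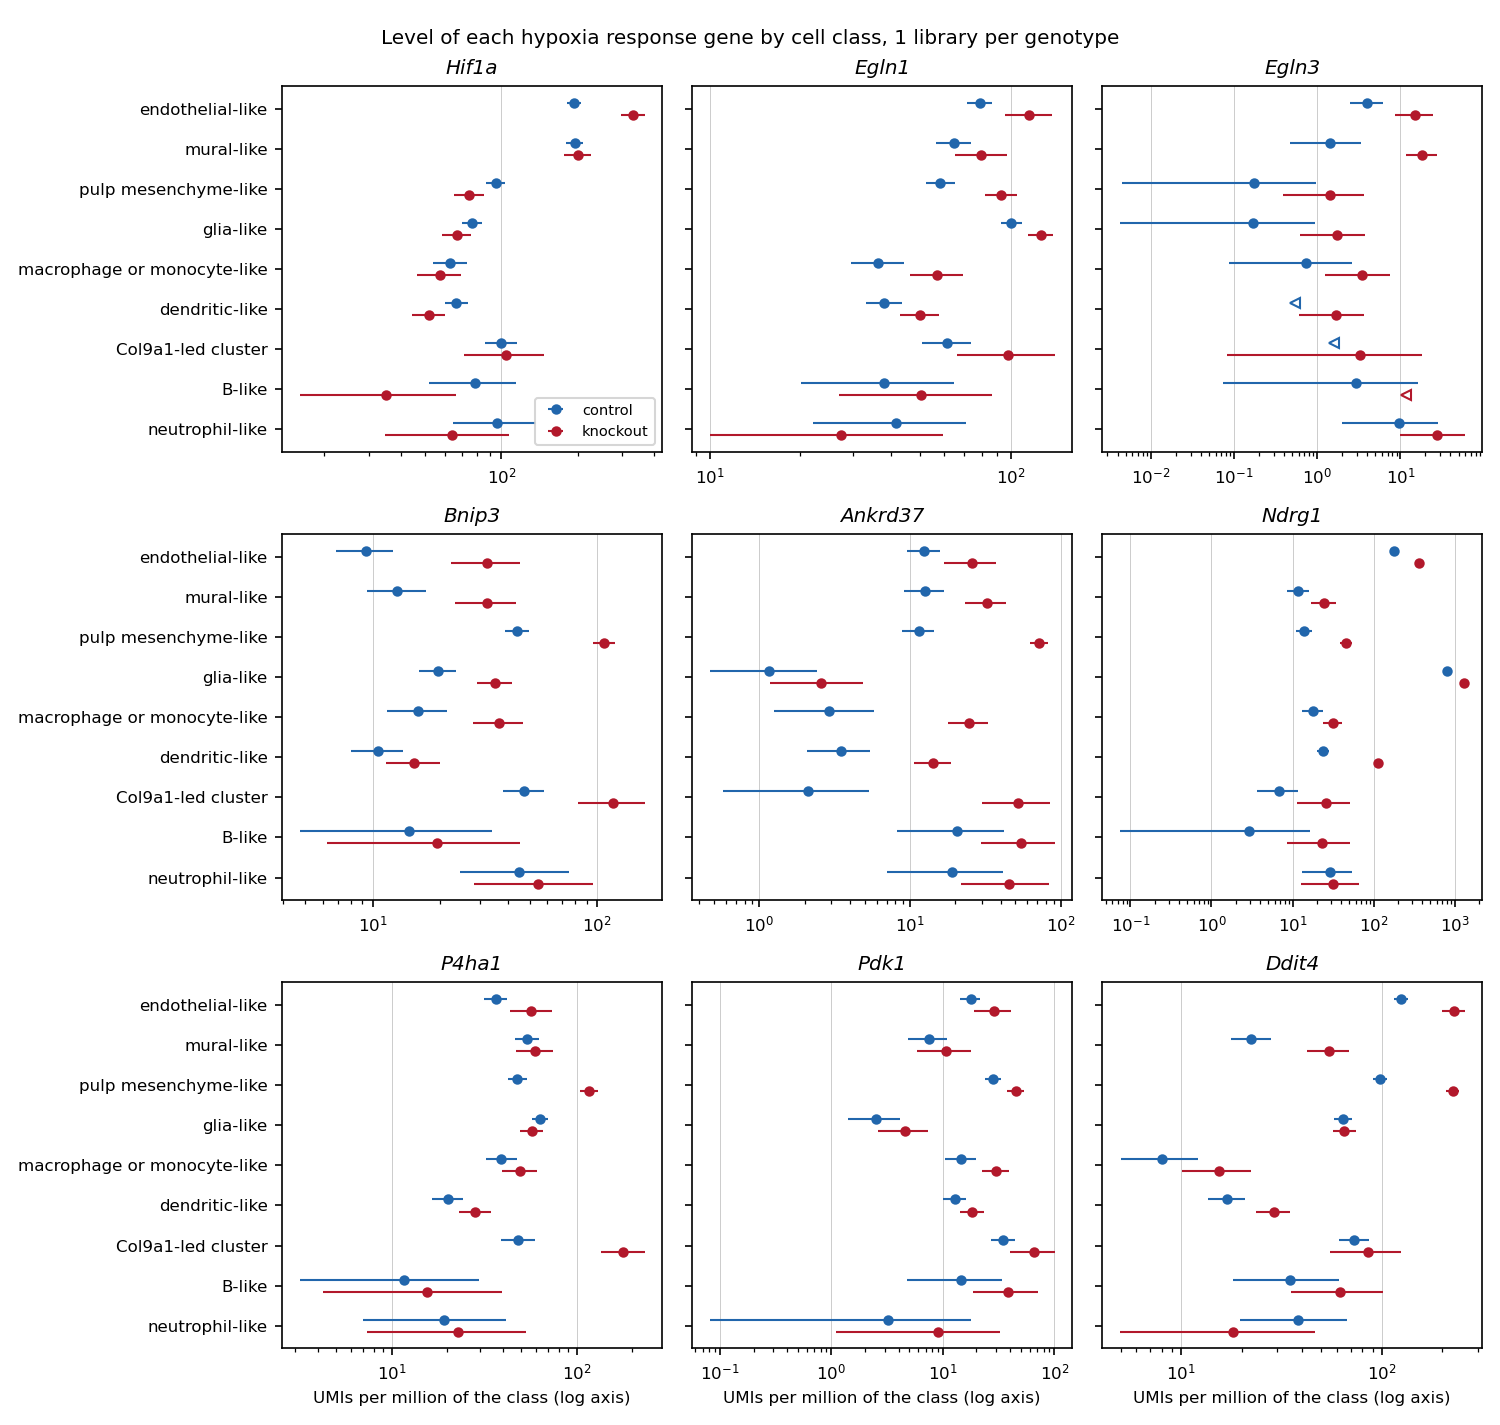
CPM (log axis) of each of the 9 genes in 9 classes, control in blue and knockout in red, with exact 95% Poisson intervals; open triangles mark the level of 3 UMIs where no UMI was counted. Hif1a is highest in endothelial-like and mural-like cells in both libraries, Ndrg1 in glia-like cells, and Bnip3, P4ha1 and Pdk1 reach their highest knockout levels in the Col9a1-led cluster and pulp mesenchyme-like cells.

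Egln1 encodes PHD2, the main HIF prolyl hydroxylase of most cells and itself a HIF target. It was present in every class, from 36.3 CPM in macrophage or monocyte-like cells to 100 CPM in glia-like cells of the control. The knockout level was 115 CPM against 78.8 CPM in endothelial-like cells (1.46, 1.18 to 1.79), 92.9 against 58.3 CPM in pulp mesenchyme-like cells (1.59, 1.35 to 1.88) and 57.0 against 36.3 CPM in macrophage or monocyte-like cells (1.57, 1.18 to 2.09). The ratios were smaller in glia-like cells, at 126 against 100 CPM (1.25, 1.10 to 1.42), and in dendritic-like cells, at 49.8 against 37.9 CPM (1.31, 1.07 to 1.61). In mural-like cells, with 79.7 against 64.8 CPM, the interval included 1 (1.23, 0.967 to 1.56). Egln1 thus had the narrowest range of ratios of the 9 genes, 1.23 to 1.59, and 16 of the 17 clusters within these classes had a ratio above 1.

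Egln3 encodes PHD3, a hydroxylase whose mRNA is known for strong induction by hypoxia, and it was the sparsest of the 9. In mural-like cells 5 UMIs were counted in the control and 24 in the knockout, 1.43 and 18.4 CPM, a ratio of 12.8 (4.80 to 43.1). Almost all of this lay in the mural-like cluster led by Mgp, with the pericyte genes Abcc9, Kcnj8 and Higd1b among its leading genes, where 1 of 126 control cells and 13 of 58 knockout cells held 1 and 22 Egln3 UMIs. A single knockout cell of that cluster held 7 of the 24 mural-like UMIs, and the ratio without the top cell of each library was 11.4. Endothelial-like cells had 21 and 16 UMIs, 4.0 and 15.2 CPM (3.80, 1.85 to 7.64). This ratio was 7 (2.62 to 18.7) in cells with Xist UMIs, from 10 UMIs in each library, and 1.36 (0.365 to 4.37) in cells with UMIs of Y-linked genes, from 10 and 5. In the other 4 compared classes Egln3 had at most 6 UMIs in either library, with counts of 1 and 4 in pulp mesenchyme-like cells, 1 and 6 among glia-like cells, 2 and 6 in macrophage or monocyte-like and 0 and 6 in dendritic-like cells.

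Bnip3 encodes a mitochondrial outer membrane protein that recruits the autophagy machinery to mitochondria. In the control it was highest in the Col9a1-led cluster (47.3 CPM), neutrophil-like cells (44.6 CPM) and pulp mesenchyme-like cells (44.0 CPM), which did not differ from each other beyond counting error, and it was lowest in endothelial-like cells (9.33 CPM). In endothelial-like cells the knockout level was 32.2 CPM, a ratio of 3.46 (2.16 to 5.47). This ratio was 1.88 (0.871 to 3.72) in cells with Xist UMIs and 7.08 (2.37 to 25.4) in those with Y-linked UMIs, whose intervals overlap. Knockout pulp mesenchyme-like cells had 108 CPM, a ratio of 2.45 (2.06 to 2.90).
Mural-like cells had 12.9 CPM in the control and 32.2 CPM in the knockout (2.5, 1.60 to 3.89), macrophage or monocyte-like cells 16 and 36.5 CPM (2.28, 1.53 to 3.43) and glia-like cells 19.5 and 35.1 CPM (1.8, 1.38 to 2.34). Dendritic-like cells had 10.6 and 15.3 CPM, with an interval that includes 1 (1.45, 0.981 to 2.13). All 16 clusters in which Bnip3 was measured had a ratio above 1, from 1.21 to 4.19, and in 8 of them the interval lay above 1. Within the mural-like class the ratio was 4.19 (2.35 to 7.60) in the Mgp-led cluster and 1.21 (0.533 to 2.58) in the cluster led by Acta2, the smooth muscle actin gene.

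Ankrd37 encodes a small ankyrin repeat protein and is known as a direct HIF-1 target. It was called higher in all 5 classes where it was measured. Pulp mesenchyme-like cells had 11.4 CPM in the control and 72.2 CPM in the knockout, a ratio of 6.34 (4.77 to 8.52). Macrophage or monocyte-like cells had 2.91 and 24.5 CPM, from 8 and 43 UMIs (8.43, 3.92 to 20.8), and dendritic-like cells 3.46 and 14.2 CPM (4.09, 2.37 to 7.34).
In the vessel wall the ratios were smaller, at 12.6 and 32.2 CPM in mural-like cells (2.55, 1.63 to 3.99) and 12.4 and 25.6 CPM in endothelial-like cells (2.07, 1.27 to 3.29). With every cell thinned to 2000 UMIs the endothelial-like ratio was 0.863 (0.253 to 2.37), on 20 control and 5 knockout UMIs, too few to give a direction. Glia-like cells held only 7 and 9 Ankrd37 UMIs. The Col9a1-led cluster had 4 and 16 UMIs, 2.10 and 52.2 CPM (24.8, 8.01 to 102). In the control no neighbours in the order from B-like through neutrophil-like, mural-like and endothelial-like to pulp mesenchyme-like cells differed beyond counting error. In the knockout pulp mesenchyme-like cells had the highest level of the classes described, although the B-like cells next to them did not differ from them beyond counting error. The Ankrd37 ratio in pulp mesenchyme-like cells was 3.52 (2.37 to 5.22) within the Cldn10-led cluster and 3.14 (1.66 to 6.69) within the Sp9-led cluster, both below the class value.

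Ndrg1 encodes a cytoplasmic protein with roles in stress responses and in the upkeep of myelin by Schwann cells, and it is both a hypoxia marker and a glial gene. In the control its level in glia-like cells was 801 CPM, followed by 176 CPM in endothelial-like cells, and no other class described passed 28.7 CPM. Glia-like cells had 1294 CPM in the knockout, a ratio of 1.62 (1.55 to 1.68). This ratio was 1.16 in cells with at least 1000 genes and at most 5% mitochondrial UMIs. Endothelial-like cells had 368 CPM in the knockout (2.09, 1.85 to 2.35).
The mix of glia-like clusters differed between the libraries. The cluster led by Mag held 54 control and 80 knockout cells, while the cluster led by Epha5 held 137 and 68. Within clusters the Ndrg1 ratio was 0.937 (0.824 to 1.06) for the Scn7a-led, 1.19 (1.05 to 1.34) for the Epha5-led and 1.41 (1.30 to 1.54) for the Mag-led cluster, each below the class value.
Ndrg1 was also called higher in classes with low levels. The levels were 11.7 and 24.5 CPM in mural-like cells (2.09, 1.27 to 3.40), 17.8 and 31.3 CPM in macrophage or monocyte-like cells (1.76, 1.18 to 2.64) and 23.9 and 113 CPM in dendritic-like cells (4.75, 3.89 to 5.82). The 10 glia markers summed to 112 CPM in control and 269 CPM in knockout dendritic-like cells, with 1 of 10 at 0 in the control and 0 of 10 in the knockout. They summed to 180 and 180 CPM in mural-like cells, with 1 of 10 at 0 in each library, and to 153 and 211 CPM in macrophage or monocyte-like cells, with 0 of 10 and 1 of 10 at 0. The part of free glial RNA in these Ndrg1 values was not tested.
In endothelial-like cells the glia markers summed to 216 and 144 CPM, with 0 of 10 and 1 of 10 at 0. In pulp mesenchyme-like cells Ndrg1 was 14 CPM in the control and 45.7 CPM in the knockout (3.26, 2.45 to 4.37). A single knockout cell of the Pcp4-led cluster held 25 of the 128 knockout UMIs, and without the top cell of each library the ratio was 2.83.

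P4ha1 encodes the catalytic subunit of the prolyl 4-hydroxylase that makes collagen helices stable. Its control level ran from glia-like (63.7 CPM) through mural-like (54.2 CPM) and Col9a1-led (48.3 CPM) to pulp mesenchyme-like cells (47.8 CPM). No neighbours in this order differed beyond counting error. The intervals at its ends, 57.5 to 70.4 CPM in glia-like and 42.3 to 53.8 CPM in pulp mesenchyme-like cells, do not overlap. In the knockout the Col9a1-led cluster had 179 CPM (3.71, 2.61 to 5.24) and pulp mesenchyme-like cells had 117 CPM (2.45, 2.08 to 2.89), each above the next class in order. The endothelial-like ratio was 1.55 (1.14 to 2.08), from 36.7 to 56.9 CPM.
P4ha1 was not called higher in the other 4 classes. The ratios were 1.41 (1.07 to 1.87) in dendritic-like, 1.26 (0.941 to 1.69) in macrophage or monocyte-like, 1.10 (0.837 to 1.45) in mural-like and 0.90 (0.755 to 1.07) in glia-like cells. Among pulp mesenchyme-like clusters it was 2.25 (1.73 to 2.90) in the Cldn10-led, 2.73 (1.67 to 4.78) in the Sp9-led and 1.31 (0.608 to 2.5) in the Pcp4-led cluster.

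Pdk1 encodes a kinase that inhibits pyruvate dehydrogenase and so holds pyruvate back from the mitochondria. Among the 9 classes described it was highest in the Col9a1-led cluster, with 34.7 CPM in the control and 65.2 CPM in the knockout (1.88, 1.08 to 3.14), while the few T or NK-like cells had 61.6 and 65.6 CPM from 13 and 18 UMIs. Next in order were pulp mesenchyme-like cells, with 28.2 and 45.0 CPM (1.60, 1.25 to 2.03). Endothelial-like cells had 17.7 and 28.5 CPM (1.61, 1.03 to 2.45) and macrophage or monocyte-like cells 14.5 and 30.2 CPM (2.08, 1.35 to 3.21). Among the latter, the Pf4-led cluster, with the macrophage genes Mrc1 and C1qa among its leading genes, had 28.3 and 71.3 CPM (2.52, 1.30 to 5.02). In dendritic-like cells the ratio was 1.44 (1.01 to 2.04). The intervals of the mural-like (1.44, 0.695 to 2.86) and glia-like ratios (1.82, 0.845 to 3.96) included 1, on 40 UMIs and 31 UMIs over both libraries.

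Ddit4 encodes REDD1, which restrains the growth kinase complex mTORC1 and responds to hypoxia, DNA damage and glucocorticoids. Its control level was 124 CPM in endothelial-like and 97.9 CPM in pulp mesenchyme-like cells, and 8.0 CPM in macrophage or monocyte-like cells. Knockout pulp mesenchyme-like cells had 225 CPM, a ratio of 2.29 (2.04 to 2.58), and the interval lay above 1 in the Cldn10-led (1.57, 1.33 to 1.85) and Sp9-led clusters (1.77, 1.31 to 2.42). Endothelial-like cells had 228 CPM in the knockout (1.83, 1.57 to 2.13), of which 1 cell of the Vwf-led cluster held 54 of 240 UMIs; without the top cell of each library the ratio was 1.53.
Mural-like cells had 22.4 and 54.4 CPM (2.44, 1.74 to 3.40), and 1 cell of the Acta2-led cluster held 16 of the 71 knockout UMIs. This ratio was 4.45 in cells with Xist UMIs and 0.888 in cells with UMIs of Y-linked genes. Dendritic-like cells had 17.0 and 28.9 CPM (1.70, 1.28 to 2.28) and macrophage or monocyte-like cells 8.0 and 15.4 CPM (1.92, 1.06 to 3.55). In glia-like cells Ddit4 was nearly equal, at 64.2 and 65.0 CPM (1.01, 0.856 to 1.20).

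**Figure D3:**
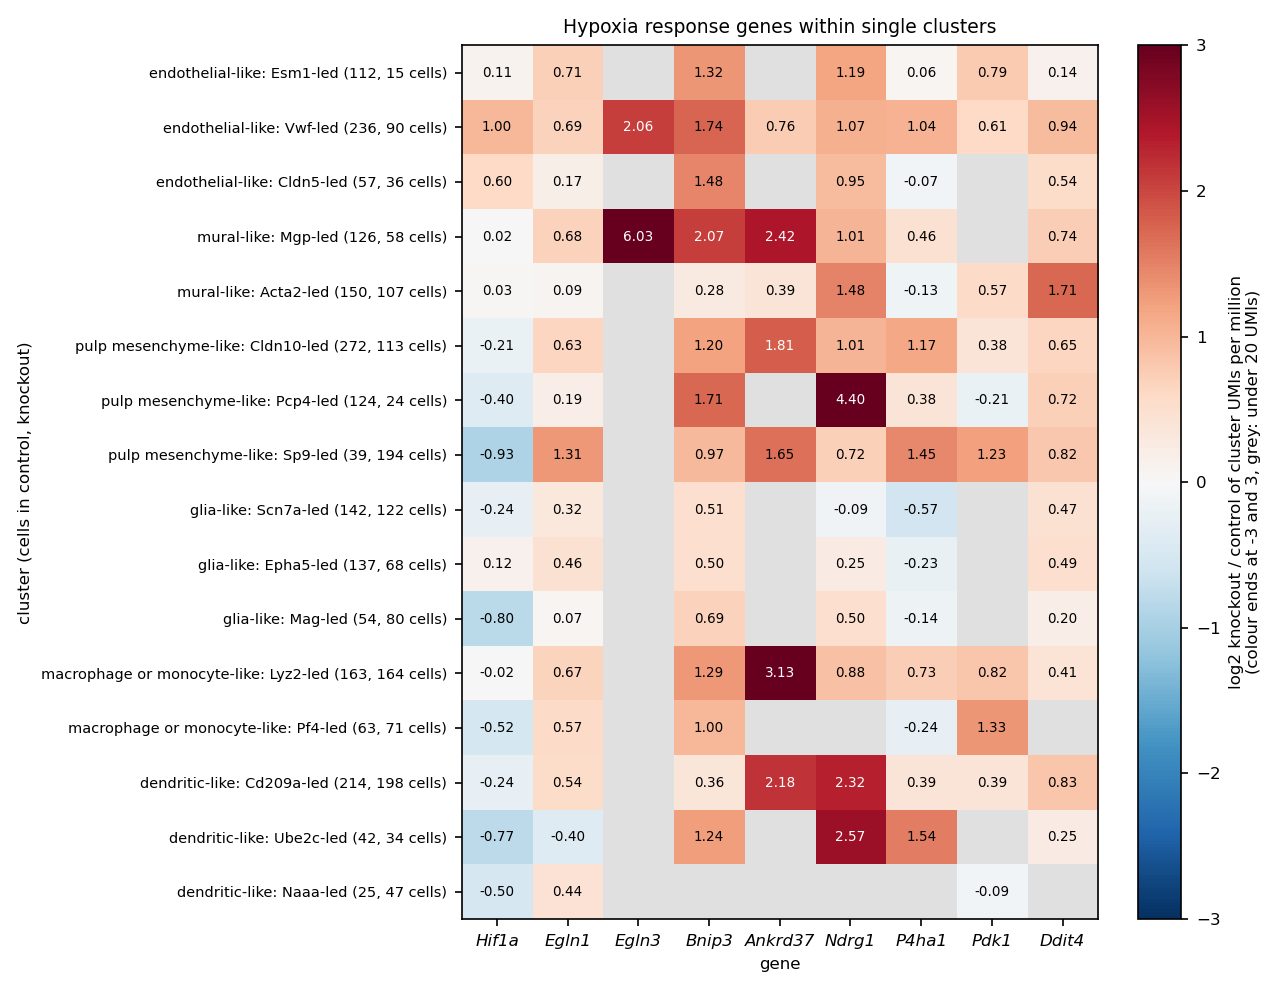
Log2 ratio of knockout over control CPM for each gene (columns) within 16 clusters of the 6 classes (rows, with control and knockout cell numbers), red for higher and blue for lower in the knockout, and grey under 20 UMIs. Bnip3 is above 0 in every cluster shown where it was measured, Hif1a is below 0 in most clusters outside the endothelial-like class, and the Egln3 value of the Mgp-led cluster rests on 1 control UMI.

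The pulp mesenchyme-like class had the highest median, except at a clustering resolution of 0.5, where it was 0.88 beside 1.06 in mural-like cells. Its clusters were unevenly shared: the Cldn10-led cluster held 272 control and 113 knockout cells, the Sp9-led 39 and 194, and the Pcp4-led 124 and 24. The median log2 ratio of the 9 genes, where measured, was 0.83, 1.10 and 0.38 in these clusters, against 1.24 for the class. The 24 knockout cells of the Pcp4-led cluster had a median of only 1648 UMIs. The 10 mural markers summed to 242 CPM in control and 675 CPM in knockout pulp mesenchyme-like cells, with 0 of 10 at 0 in either library, and to 322 and 617 CPM in endothelial-like cells, with 1 of 10 and 0 of 10 at 0. The 10 glia markers summed to 134 and 261 CPM in pulp mesenchyme-like cells, with 0 of 10 at 0. The part of RNA from these other cells in the ratios was not tested.
In the vessel wall the median was 1.00 in the Vwf-led, 0.71 in the Esm1-led and 0.57 in the Cldn5-led endothelial-like clusters, and 0.88 in the Mgp-led and 0.33 in the Acta2-led mural-like clusters. Over the 17 clusters with at least 15 cells in each library, 93 of the 115 measured ratios of gene and cluster were above 1 and 55 were at least 1.5. Among all 143572 measured pairs of gene and cluster in these 17 clusters, 47.8% were above 1 and 12.8% were at least 1.5.

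Depth was lower in the knockout, so the number of these genes detected per cell was compared after thinning each cell to 2000 UMIs. The intervals of these shares count cells within 1 library per genotype. They do not cover differences between animals, litters or library preparations, so their overlap or lack of it is no test of genotype. Shares of other genes were not set beside them. Among endothelial-like cells, 25 of 373 control cells (6.70%, exact interval 4.38% to 9.74%) and 29 of 108 knockout cells (26.9%, 18.8% to 36.2%) had at least 3 of the 9 genes. For pulp mesenchyme-like cells the shares were 3.30% (1.82% to 5.48%) and 10.6% (7.44% to 14.6%), and these intervals do not overlap either. The shares were 2.59% and 7.24% in mural-like cells, with overlapping intervals, and 8.52% and 9.42% in glia-like cells. Few macrophage or monocyte-like (0 of 221 and 2 of 220) or dendritic-like cells (0 of 275 and 1 of 267) had 3 of the genes. Without thinning the endothelial-like shares were 65.7% and 61.7%, in the opposite order. Of the endothelial-like cells, 32 in the control and 33 in the knockout were too shallow to be thinned.
Gene by gene, Ndrg1 was seen in 23.9% of the endothelial-like cells of the control at that depth and 56.5% of those of the knockout (65.4% and 69.5% unthinned) and Bnip3 in 1.61% and 12% (9.38% and 18.4% unthinned). Hif1a was seen in 36.2% (31.3% to 41.3%) and 50% (40.2% to 59.8%) of them (74.6% and 70.2% unthinned), with overlapping intervals. The thinned shares were 14.2% and 21.3% for Egln1, 16.6% and 21.3% for Ddit4, 8.85% and 12% for P4ha1, 2.68% and 4.63% for Pdk1, 0.268% and 1.85% for Egln3 and 5.36% and 4.63% for Ankrd37, whose intervals overlap too. Among pulp mesenchyme-like cells they were 17.2% and 31.6% for Ddit4, 11.6% and 23.5% for P4ha1, 8.73% and 19.4% for Bnip3 and 1.65% and 11.3% for Ankrd37. Unthinned, these were 55.6% and 69.5%, 42.1% and 55.0%, 39.8% and 44.7%, and 10.3% and 32.3%. These genes are expressed widely, and no class was known to lack them all as a measure of background.
Of the 32 pairs of gene and class called higher, 24 were still at least 1.5-fold higher in the thinned counts, taken with no UMI minimum. Of the 8 that were not, 4 were in endothelial-like cells, where P4ha1 was 1.32 (0.640 to 2.57) and Ddit4 1.46 (0.952 to 2.19) beside the Hif1a and Ankrd37 values above. Ndrg1 was 1.42 (0.487 to 4.0) in mural-like, 1.29 (0.609 to 2.71) in pulp mesenchyme-like and 1.13 (0.387 to 3.37) in macrophage or monocyte-like cells, and Egln1 was 1.40 (0.911 to 2.15) in pulp mesenchyme-like cells. All 8 intervals include 1. Some of the 24 rested on few UMIs, such as Egln3 in endothelial-like cells on 1 and 2. Among genes with at least 20 UMIs after thinning, 2 of 6 were called higher in endothelial-like, 2 of 4 in mural-like and 5 of 8 in pulp mesenchyme-like cells. The counts were 2 of 6 in glia-like, 4 of 5 in macrophage or monocyte-like and 1 of 3 in dendritic-like cells, where 1 was called lower.

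**Figure D4:**
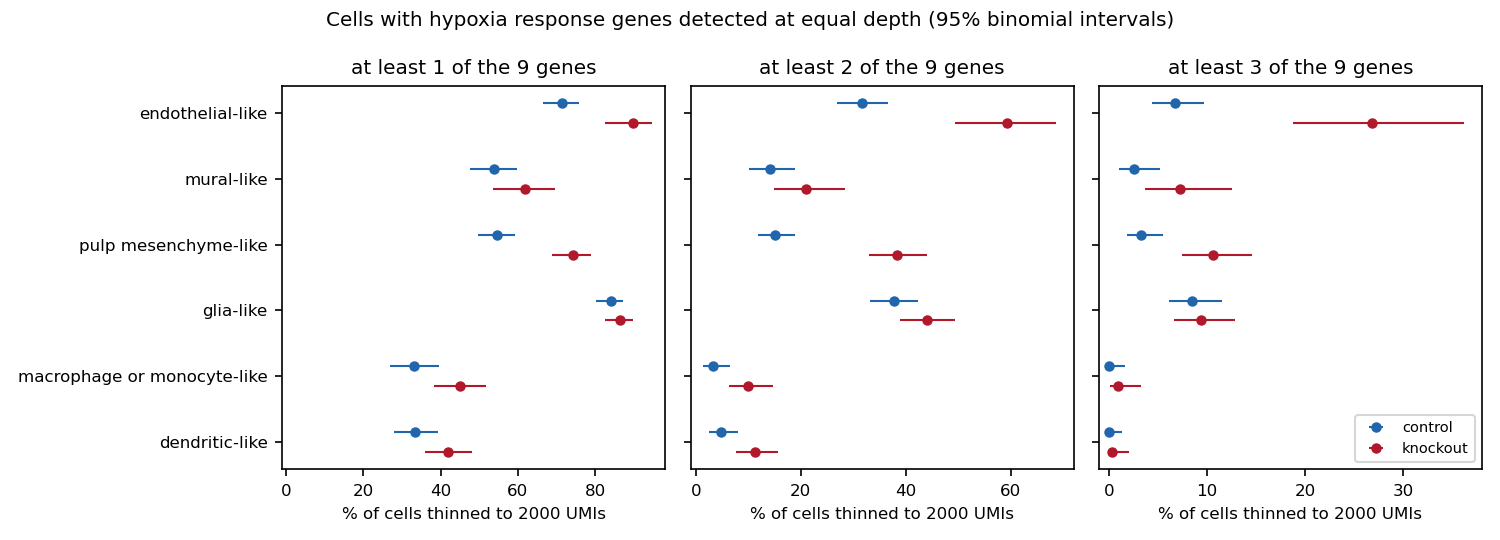
Share of cells (%) with at least 1, 2 or 3 of the 9 genes after thinning to 2000 UMIs, by class, control in blue and knockout in red, with exact 95% binomial intervals. Endothelial-like, mural-like and pulp mesenchyme-like knockout shares lie above the control intervals in all 3 panels. The mural-like and the glia-like intervals overlap between the libraries.

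The rest of the pathway was read from lists of known members. Of 15 other genes of the HIF machinery (alpha and beta subunits, the von Hippel-Lindau complex, coactivators), 1 of 13 measured was called higher in endothelial-like, 2 of 14 in mural-like, 3 of 15 in pulp mesenchyme-like, 1 of 14 in glia-like, 1 of 12 in macrophage or monocyte-like and 0 of 13 in dendritic-like cells. Those called lower were 1 of 15 in pulp mesenchyme-like cells, Arnt2, and 1 of 13 in dendritic-like cells, Cul2. Hif3a, an alpha subunit gene known as a HIF target, had 8.88 and 32.2 CPM in mural-like (3.63, 2.23 to 5.97) and 2.98 and 11.4 CPM in pulp mesenchyme-like cells (3.84, 2.07 to 7.37). Cited2, an inhibitor of HIF that competes for its coactivator, had 166 and 297 CPM in pulp mesenchyme-like cells (1.78, 1.62 to 1.96).
Of 30 other known HIF targets, 15 of 28 measured were called higher and 0 lower in pulp mesenchyme-like cells, 13 of 27 and 2 in mural-like, and 9 of 24 and 4 in endothelial-like cells. The counts were 4 of 25 higher and 0 lower in glia-like, 4 of 16 and 0 in macrophage or monocyte-like and 4 of 18 and 2 in dendritic-like cells. Vegfa, the ligand of Vegfr2, had ratios of 3.09 (2.74 to 3.50) in pulp mesenchyme-like, 7.25 (4.63 to 11.8) in macrophage or monocyte-like and 5.10 (3.61 to 7.35) in dendritic-like cells. Ndufa4l2, a mitochondrial protein gene, had 2.80 and 20.7 CPM in pulp mesenchyme-like cells (7.39, 4.19 to 13.8). Its level in mural-like cells was 997 CPM in the control and 867 CPM in the knockout (0.869, 0.812 to 0.930). The part of mural RNA in the pulp mesenchyme-like value was not tested. In endothelial-like cells the largest ratios of this list were those of Lox, a collagen crosslinking enzyme (1.33 and 25.6 CPM, 19.2, 8.17 to 52.3), and Angptl4, a secreted lipase inhibitor (4.38 and 51.2 CPM, 11.7, 7.06 to 20).
Of the 19 glycolysis genes, 14 of 19 were higher and 1 lower in pulp mesenchyme-like cells, and 14 of 19 higher and 0 lower in macrophage or monocyte-like cells. In dendritic-like cells 9 of 19 were higher and 1 lower, in mural-like cells 5 of 17 and 0, in endothelial-like cells 3 of 15 and 0, and in glia-like cells 3 of 18 and 1. In endothelial-like cells the median log2 ratio was thus 0.36 for the glycolysis genes and 0.87 for the 9 genes, and in macrophage or monocyte-like cells 0.92 and 0.88. The lists were not compared by a test, and they were chosen with earlier results of these data known.

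Genes that work beside single members were read as groups. For Bnip3, 9 mitophagy and autophagy genes had medians between -0.03 in endothelial-like and 0.31 in dendritic-like cells. Sqstm1, an autophagy receptor, was 2.87 (2.57 to 3.21) in dendritic-like cells. At most 2 genes of this list were called higher per class, and 1 was called lower in each of endothelial-like and mural-like cells. For Ddit4, 8 other brakes on mTORC1 had medians between -0.12 in endothelial-like and 0.33 in glia-like cells. In glia-like cells Sesn1 (1.97, 1.59 to 2.44) was called higher. Sesn2 was also called higher there, from 14 and 15 UMIs, with an interval that includes 1 (1.83, 0.825 to 4.10). Both genes are also in the integrated stress and p53 list below. Of these brakes 1 was called higher in each of endothelial-like and macrophage or monocyte-like cells. Called lower were 1 in pulp mesenchyme-like and 2 in dendritic-like cells. For P4ha1, 8 collagen hydroxylation genes had medians between -0.20 in glia-like and 0.12 in endothelial-like cells. Of these, P4ha2, the other main catalytic subunit, was 1.51 (1.35 to 1.70) and Crtap 0.666 (0.578 to 0.765) in pulp mesenchyme-like cells. In this list 1 gene was called higher in each of endothelial-like and pulp mesenchyme-like cells. In each of pulp mesenchyme-like and glia-like cells 1 was called lower. For Pdk1, 7 pyruvate dehydrogenase genes had medians between -0.42 in mural-like and 0.01 in macrophage or monocyte-like cells, with Dlat, a core subunit, at 0.657 (0.491 to 0.869) in pulp mesenchyme-like cells.

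Stimuli other than low oxygen are known to raise Ddit4 and Ndrg1, and lists of genes for such stimuli were read beside them. Of 12 integrated stress and p53 target genes, 3 of 11 measured were called higher in endothelial-like and 4 of 9 in glia-like and in macrophage or monocyte-like cells, with Cdkn1a, the p21 cell cycle inhibitor, at 7.37 (6.08 to 8.94) in endothelial-like cells. The count was 3 of 10 in each of the mural-like, pulp mesenchyme-like and dendritic-like classes. Of the same list, 2 were called lower in endothelial-like, 2 in pulp mesenchyme-like and 1 in dendritic-like cells. Of 8 glucocorticoid targets, 2 of 7 measured were called higher in endothelial-like, 5 of 7 in mural-like and 4 of 6 in pulp mesenchyme-like cells. The counts were 3 of 7 in glia-like, 3 of 7 in macrophage or monocyte-like and 3 of 8 in dendritic-like cells. Medians of this list lay between 0.36 and 1.08. Zbtb16 was called lower in dendritic-like cells (0.248, 0.0942 to 0.556).
Genes known to be induced by tissue dissociation, such as Fos, Jun and Hspa1a, summed to 3987 CPM in control and 6994 CPM in knockout endothelial-like cells, 3201 and 7227 CPM in mural-like, 3797 and 5592 CPM in pulp mesenchyme-like cells, and 1489 and 2431 CPM in glia-like cells. Their sums were 7473 and 10588 CPM in macrophage or monocyte-like and 11295 and 12263 CPM in dendritic-like cells. Of the 12 genes, 6, 12, 6, 7, 1 and 0 were called higher in these classes in that order. Called lower were 1 in macrophage or monocyte-like and 2 in dendritic-like cells, and 0 of the 12 was at 0 in any class. The part of this handling signal in the ratios of the 9 genes was not tested.

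**Figure D5:**
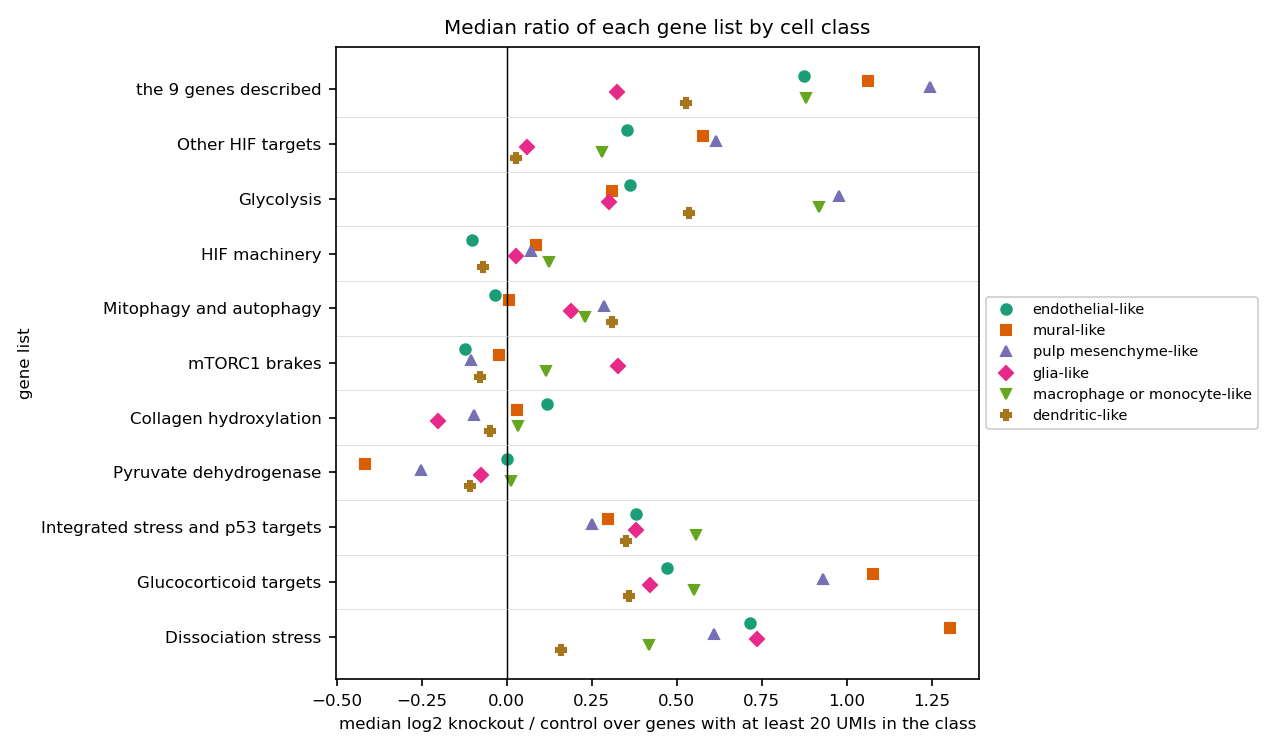
Median log2 ratio of knockout over control CPM for the 9 genes and 10 other gene lists (rows), with 1 symbol for each of the 6 classes. The 9 genes lie between 0.32 and 1.24, HIF machinery between -0.10 and 0.12, and the dissociation stress list between 0.16 and 1.30.

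The genes most alike in pattern to each of the 9 were taken as those with the highest Pearson correlation of log2(CPM + 10) over 18 points, 9 classes in each of 2 libraries, among 12855 genes. These points share libraries and depth, and the values are a description. For Hif1a they were Apbb2 (0.94), Arhgap29 and Efnb2, for Egln1 Tom1l2 (0.93), Map3k7 and Spef1, and for Egln3 Hipk1 (0.83), Herpud2 and Kctd20. For Bnip3 they were Tmc4 (0.87), Cux2 and Maea, for Ankrd37 Narf (0.84), Sap18 and Ldha, and for Ndrg1 Ttc9 (0.93), Fam198b and Tnfaip8l1. For P4ha1 they were Gm4117 (0.91), Carf and Pwwp2b, for Pdk1 Fzd5 (0.89), Slc25a22 and Dffb, and for Ddit4 Axin2 (0.89), Pcdhgb4 and Rnf122. Ldha, the lactate dehydrogenase gene, was the only one of the 27 that belongs to another list used here.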

How the data were processed

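Single-cell libraries of dental pulp were analysed, 1 control and 1 Vegfr2 knockout, so each group holds 1 replicate. The deposited values are whole-number UMI counts per gene and cell barcode in filtered matrices. Cell Ranger 6.0.1 and mm10 appear in the submitters' processing notes, while per the file headers the version was 5.0.0 for the control and 6.0.1 for the knockout, so software version and genotype cannot be told apart. The members and gene lists were chosen with earlier results of these data known. Barcodes with fewer than 500 genes, fewer than 1000 UMIs or over 10% mitochondrial UMIs were removed, leaving 2329 of 3487 control and 1683 of 2563 knockout barcodes. Scrublet then removed 24 of 4012 cells (0.598%) as doublets, and doublets may remain. The libraries shared 3 barcodes as deposited and 2 among kept cells. For clustering only, each cell was scaled to a total of 10000 and logged, with 2000 variable genes that left out the members and lists, 30 principal components, 15 neighbours and Leiden resolution 1 in scanpy 1.11.5 (Python 3.11.15, SciPy 1.17.1). Clusters were named from at least 3 detected markers. The cluster led by Col9a1 is called by its leading gene, although cartilage markers scored best there. UMIs were summed per class and library. All 9 members are named wherever they have 20 UMIs, and at most 3 genes per other list and direction are named. The ratio calculation was tested on simulated data. A count of 3 UMIs was the floor for a level of 0. Cells of either sex by Xist or Y-linked UMIs were present in both libraries. The 14 alternatives tried were other filters, clusterings, gates, scalings, thinning, UMI minimums and cell sex. Results for 1 item are not reported here.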

Additional observations from a re-analysis of the deposited data

Results flagged for a closer look

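Without thinning, Hif1a had opposite directions in different classes under the same contrast of knockout over control. The ratio was 1.71 in endothelial-like cells, with an interval above 1 (1.34, 0.999 to 1.77, after thinning), and 0.786 in pulp mesenchyme-like and 0.779 in dendritic-like cells, with intervals below 1. After thinning the ratio was 0.995 (0.671 to 1.46) in pulp mesenchyme-like and 0.664 (0.401 to 1.08) in dendritic-like cells, and both intervals include 1. The difference between the classes was not tested.

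The barcodes left out for more than 10% mitochondrial UMIs, 849 in the control and 614 in the knockout, enter none of the class values. Taken as 1 pool per library, their ratios had intervals above 1 for 7 of the 9 genes, and for 6 of the 8 with at least 20 UMIs, beside 16.5% of all 12405 genes measured there: 1.33 for Egln1, 5.92 for Egln3 (2 and 6 UMIs), 2.04 for Bnip3, 3.75 for Ankrd37, 1.84 for P4ha1, 1.44 for Pdk1 and 1.41 for Ddit4. Hif1a, at 0.853, and Ndrg1, at 1.14, had intervals that include 1.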

How the results depend on the processing

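No paired analysis was possible because each group holds 1 library. Of 84 alternative values of the 6 medians, 77 moved by less than the limit used, whose size is not given here. Of the rest, 6 moved by more and 1 reversed. The cause of each was not tested. Alternatives that changed only the scaling or the UMI minimum kept the same cells. The share of small moves, here and for single genes below, is therefore no independent measure of stability. The median log2 ratio was 0.48 in endothelial-like and 0.0426 in dendritic-like cells after thinning, 0.69 in glia-like cells with a minimum of 1 UMI in each library, and -0.0325 in macrophage or monocyte-like cells with Y-linked UMIs (31 control and 50 knockout cells, 4 genes measured). In pulp mesenchyme-like cells it was 1.58 with at least 1000 genes and at most 5% mitochondrial UMIs, 1.02 with a mitochondrial limit of 20% and 0.88 at resolution 0.5. Of 586 alternative values for single genes, 516 moved by less than the limit, 66 moved by more and 4 were counted as reversed. The rule for a reversal is not given here. The 4 were Ankrd37 in endothelial-like cells after thinning (0.863) and 3 ratios in cells with Y-linked UMIs. These were Ddit4 in mural-like (0.888), and Egln1 (0.881) and Ndrg1 (0.771) in macrophage or monocyte-like cells. Other ratios changed side of 1 without being counted as reversed. In dendritic-like cells Bnip3 went from 1.45 to 0.616 with Y-linked UMIs and P4ha1 from 1.41 to 0.927 after thinning. In glia-like cells Ddit4 went from 1.01 to 0.775 with Xist UMIs and Hif1a from 0.872 to 1.12 with Y-linked UMIs. Of the 32 pairs of gene and class called higher, 30 had a ratio in cells with Y-linked UMIs, taken with no UMI minimum. Of these, 22 were at least 1.5. Genes called higher ranged from 2 to 9 in endothelial-like, 2 to 6 in mural-like, 5 to 8 in pulp mesenchyme-like, 1 to 5 in glia-like, 0 to 7 in macrophage or monocyte-like and 1 to 6 in dendritic-like cells. Thinning gave the lowest count in 4 of these classes. It measured fewer genes in endothelial-like (6), mural-like (4) and dendritic-like cells (3), but the same 8 in pulp mesenchyme-like cells. Depth limits Egln3 most, with under 20 UMIs in 4 of the 6 classes. The libraries differ in genotype, animals, preparation, depth and software version at once, and these cannot be told apart.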
